A study of Rattus norvegicus with 9 samples.

Results

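The genes described here are 7 genes of cholesterol synthesis, Hmgcs1, Idi1, Fdps, Sqle, Lss, Cyp51 and Srebf2, measured in rat liver after total-body irradiation (TBI). They were taken by symbol, through the RefSeq accession that the array files give for each probe, and were read by 11 of the 41012 probes, or 7 of the 13438 genes that could be named on the array. All 11 probes stood well above background on all 9 arrays, so that no member was lost to the filter on dim probes.

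The livers came from 9 male Wistar rats, with 1 one-colour Agilent array per rat and 3 rats in each of 3 groups. Control rats were not irradiated. TBI rats were exposed to 6.5 Gy from a cobalt source at 2 Gy/min. HSC + TBI rats received Hong Shan Capsule (HSC), a preparation of medicinal herbs dissolved in water, by the intragastric route on each of the 3 days before the same exposure. Liver RNA was sampled 24 h after irradiation. The HSC dose is given as 30 mg/kg/day in the treatment protocol of the samples and as 10 g/kg/day in the design text of the series, and it entered no calculation. None of the 3 groups received HSC without irradiation. Because whole liver was extracted, fewer cells of a type and less RNA per cell cannot be told apart.

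Cholesterol is built in the cell from acetyl-CoA. The mevalonate steps lead to the isoprene units, which are joined to farnesyl diphosphate and then to squalene, and squalene is oxidised and folded into lanosterol, from which the later enzymes make cholesterol. In the liver these enzymes are set together by the sterol-sensing transcription factor SREBP-2, the product of Srebf2, which is carried by Scap and held in the endoplasmic reticulum by the Insig proteins when sterols are abundant. The promoters of many of its target genes hold a sterol regulatory element near a box for the factor NF-Y.

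The 250 bases before the transcription start of 4 members are shown because their enzymes span the pathway and their promoters hold the NF-Y box. Capitals mark that box, spelled CCAAT, or ATTGG where it lies on the other strand. The sequences are those of RefSeq in build GRCr8, written 5′ to 3′ on the gene's strand, for Hmgcs1 at chr2:53382054-53382303 (plus strand), Idi1 at chr17:66547525-66547774 (minus strand), Fdps at chr2:176804817-176805066 (minus strand) and Lss at chr20:12118231-12118480 (minus strand).
Hmgcs1: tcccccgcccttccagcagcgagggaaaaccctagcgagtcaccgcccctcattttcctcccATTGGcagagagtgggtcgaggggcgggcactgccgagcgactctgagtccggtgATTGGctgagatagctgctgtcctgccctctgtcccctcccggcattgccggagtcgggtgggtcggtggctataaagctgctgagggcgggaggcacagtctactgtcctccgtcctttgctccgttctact
Idi1: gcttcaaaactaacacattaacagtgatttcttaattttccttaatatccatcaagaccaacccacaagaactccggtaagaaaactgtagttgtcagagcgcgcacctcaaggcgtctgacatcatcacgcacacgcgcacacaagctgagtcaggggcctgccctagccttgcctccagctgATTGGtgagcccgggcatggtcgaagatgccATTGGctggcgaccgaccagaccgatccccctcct
Fdps: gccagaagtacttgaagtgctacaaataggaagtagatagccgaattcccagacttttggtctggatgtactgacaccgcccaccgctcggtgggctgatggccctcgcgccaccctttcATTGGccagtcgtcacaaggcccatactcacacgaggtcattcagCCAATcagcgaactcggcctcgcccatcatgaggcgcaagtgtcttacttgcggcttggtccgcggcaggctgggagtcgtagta
Lss: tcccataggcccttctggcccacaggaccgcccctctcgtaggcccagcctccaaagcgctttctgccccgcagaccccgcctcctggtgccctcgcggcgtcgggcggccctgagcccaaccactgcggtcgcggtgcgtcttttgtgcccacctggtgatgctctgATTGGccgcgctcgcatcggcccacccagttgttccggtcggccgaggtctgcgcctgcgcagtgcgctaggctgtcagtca

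A promoter was at hand for 6 of the 7 members, Sqle being the exception. The NF-Y box stood in 5 of these 6 promoters, beginning 188 and 133 bases before the start of Hmgcs1, 66 and 35 bases before that of Idi1, 130 and 85 bases before that of Fdps, 82 bases before that of Lss and 129 bases before that of Srebf2, and no match was found in that of Cyp51. Over all 33469 rat promoters of this length, 34.02% held the box on either strand. It was found in 9 of 11 promoters of other enzymes of the pathway, in 7 of 10 promoters of cholesterol export and storage genes, and in 2 of 7 promoters of genes that control SREBP or sense oxysterols. Among the export genes, the windows of Abcg5 and Abcg8 overlap and hold the same box, which was counted for both. The classical sterol regulatory element was found, by its exact letters on either strand, in 0.1046% of all promoters, the looser form TCACNCCAC in 0.974% and the E-box CACGTG in 5.593%. None of these 3 motifs was found in a member's promoter, which says only that the letters are not in this window.

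Signals are given on the log2 scale, after normalization by quantiles, for the brightest probe of a gene, and they compare rats for the same gene but not different genes. Differences were tested with limma over 25369 probes, and a gene was called when its Benjamini-Hochberg adjusted p was under 0.05 and its change was at least 1.5-fold. The 6 enzymes, from Hmgcs1 to Cyp51, were above every control in all 3 HSC + TBI rats and in rats 2 and 3 of the TBI group, while TBI rat 1 was within or below the control range for all of them except Lss. Only Lss passed the test, with about 2.57 times the control signal after TBI and 2.80 times after HSC + TBI. Srebf2, which encodes the regulator, showed no such shift.

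Hmgcs1 (gene ID 29637) encodes the cytosolic synthase that makes HMG-CoA at the entry to the mevalonate pathway. Its log2 signal was 13.65, 12.91 and 13.40 in the controls, 13.04, 13.97 and 13.98 in the TBI rats, and 13.79, 14.26 and 14.77 in the HSC + TBI rats. The HSC + TBI rats did not overlap with the controls, whereas TBI rat 1 fell within the control range. The log2 fold change by limma was 0.35 (SE 0.34, adjusted p = 0.557) for TBI and 0.96 (SE 0.34, adjusted p = 0.166) for HSC + TBI, each against control. The second probe of the gene read 10.71, 10.17 and 10.60, then 10.20, 11.61 and 11.19, then 10.90, 11.47 and 11.81 in the same order of rats, and its order of groups was the same.

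Idi1 (gene ID 89784) encodes the isomerase that turns isopentenyl diphosphate into its reactive partner. The log2 signal of Idi1 was 11.99, 11.56 and 11.66 in the controls, 11.59, 12.83 and 12.81 in the TBI rats, and 12.49, 12.96 and 13.31 in the HSC + TBI rats. Again TBI rat 1 alone of the irradiated rats was inside the control range. The difference by limma was 0.68 (SE 0.35, adjusted p = 0.266) for TBI and 1.18 (SE 0.35, adjusted p = 0.110) for HSC + TBI on the log2 scale. The second probe gave 0.82 and 1.34, and on it TBI rat 1 read 9.27, below the controls at 9.75, 9.35 and 9.52.

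Fdps (gene ID 83791) encodes farnesyl diphosphate synthase, which joins the isoprene units. The 3 controls read 14.16, 13.95 and 14.30 on the log2 scale, the TBI rats 13.83, 14.69 and 14.91, and the HSC + TBI rats 14.59, 14.58 and 15.29. TBI rat 1 was the lowest of the 9 rats, and the other 5 irradiated rats were above all controls. The log2 fold change was 0.34 (SE 0.30, adjusted p = 0.511 by limma) after TBI and 0.68 (SE 0.30, adjusted p = 0.256) after HSC + TBI. Both Fdps probes ran in parallel over the 9 arrays, with a Pearson r of 0.993. Rats, like other mammals, carry pseudogene copies of Fdps, Idi1 and Cyp51, and a probe that also reads such a copy could not be recognised here.

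Sqle (gene ID 29230) encodes squalene epoxidase, the first oxygen-dependent enzyme of the sterol branch. In log2 signal Sqle read 10.82, 10.44 and 10.85 in the controls, 10.24, 11.66 and 11.82 in the TBI rats, and 11.40, 11.66 and 12.15 in the HSC + TBI rats. The spread within the TBI group was wide (SD 0.87 over 3 rats) against that of the controls (SD 0.23 over 3 rats), with rat 1 below every control and the others above. By limma the log2 fold change was 0.54 (SE 0.40, adjusted p = 0.431) after TBI and 1.03 (SE 0.40, adjusted p = 0.200) after HSC + TBI.

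Lss (gene ID 81681) encodes lanosterol synthase, which folds oxidised squalene into the first sterol. The log2 signal of Lss was 9.31, 8.42 and 8.51 in the controls, 9.72, 10.62 and 9.98 in the TBI rats, and 9.76, 10.48 and 10.46 in the HSC + TBI rats. It was the one enzyme of the 6 for which all 6 irradiated rats, TBI rat 1 included, were above all controls. Lss rose by 1.36 on the log2 scale after TBI (SE 0.33, 95% interval 0.62 to 2.10, limma adjusted p = 0.0393) and by 1.49 after HSC + TBI (SE 0.33, 95% interval 0.74 to 2.23, limma adjusted p = 0.0468). Both adjusted p-values lie close to the threshold. The TBI call was lost when control 2, control 3, TBI 2, TBI 3, HSC + TBI 2 or HSC + TBI 3 was left out, with log2 fold changes of 1.10 to 1.64 and an adjusted p of up to 0.127 over the 9 fits. The HSC + TBI call did not hold once control 2, control 3, TBI 3 or any 1 of the 3 HSC + TBI rats was removed, with log2 fold changes of 1.32 to 1.77 and an adjusted p of up to 0.162.

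Cyp51 (gene ID 25427) encodes the cytochrome P450 that removes a methyl group from lanosterol. Its log2 signal was 11.80, 11.60 and 11.71 in the controls, 11.41, 12.24 and 12.91 in the TBI rats, and 12.15, 12.31 and 12.67 in the HSC + TBI rats. TBI rat 1 was the lowest and TBI rat 3 the highest of all rats, so that the TBI group spanned the whole range. The limma difference was 0.48 (SE 0.33, adjusted p = 0.393) after TBI and 0.68 (SE 0.33, adjusted p = 0.302) after HSC + TBI on the log2 scale.

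Srebf2 (gene ID 300095) read 7.88, 7.73 and 7.79 in the controls, 7.80, 7.96 and 7.50 in the TBI rats, and 7.80, 7.88 and 8.27 in the HSC + TBI rats on the log2 scale. All 3 groups overlapped. The log2 fold change by limma was -0.05 (95% interval -0.43 to 0.33, adjusted p = 0.884) after TBI and 0.18 (95% interval -0.20 to 0.56, adjusted p = 0.603) after HSC + TBI. Its second, dimmer probe gave -0.14 and 0.14. Both intervals of the brighter probe lie within a log2 difference of 1, a doubling, in either direction.

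**Figure D1:**
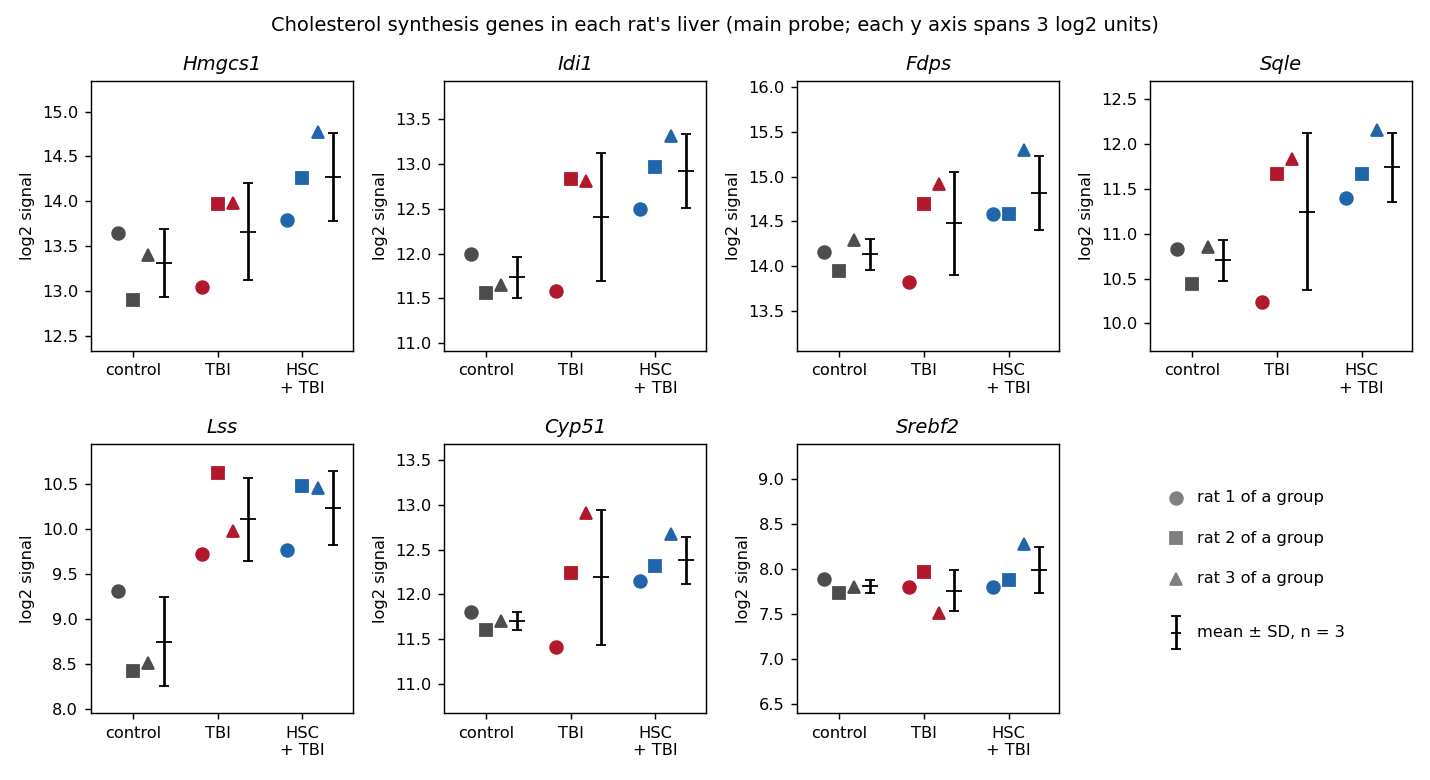
Log2 signal (y axis, each spanning 3 log2 units) of the brightest probe of each member in each rat, by group (x axis), with circles, squares and triangles for rats 1, 2 and 3 of a group and the mean ± SD of the 3 rats as a bar. In the panels of the 6 enzymes the circle of TBI rat 1 lies within or below the control range except for Lss, where it reads 9.72, and the other irradiated rats lie above all controls.

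The first comparison asked which of these genes differ between irradiated and non-irradiated liver. Of the 7 members 1 was called higher after TBI, against 3.87% of the 9601 named genes tested. The same 1 member passed an unadjusted p of 0.05 with a higher signal, against 13.2% of named genes, and 1 member did not overlap with the controls, against 14.2%. The fitted difference was above 0 for 6 of the 7 members, with a median of 0.48 on the log2 scale beside 0.01 over all named genes. When TBI rat 1 was left out, limma called 3 members, Idi1 (1.09, adjusted p = 0.0414), Sqle (1.04, adjusted p = 0.0441) and Lss, and the median over the 6 enzymes went from 0.51 to 0.96. When TBI rat 3 was left out, that median was 0.22 and no member was called.

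The second comparison set HSC + TBI against control. Of the 7 members 1, Lss, was called higher, against 1.18% of named genes. An unadjusted p under 0.05 was reached by 4 members (Hmgcs1, Idi1, Sqle and Lss), against 10.2% of named genes with a higher signal. The 6 enzymes did not overlap with the controls, against 17.6% of named genes that were higher without overlap. All 7 fitted differences were above 0, with a median of 0.96 on the log2 scale beside 0.02 over all named genes. Over the 6 enzymes the median was 0.99, and it stayed between 0.77 and 1.20 when each rat was left out in turn. Both comparisons share the 3 control rats, so their directions are not independent of each other. Without TBI rat 1, which is not part of either group but enters the fit of the 3 groups, 3 members were called (Idi1 at adjusted p = 0.0310, Sqle at 0.0439, and Lss).

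**Figure D2:**
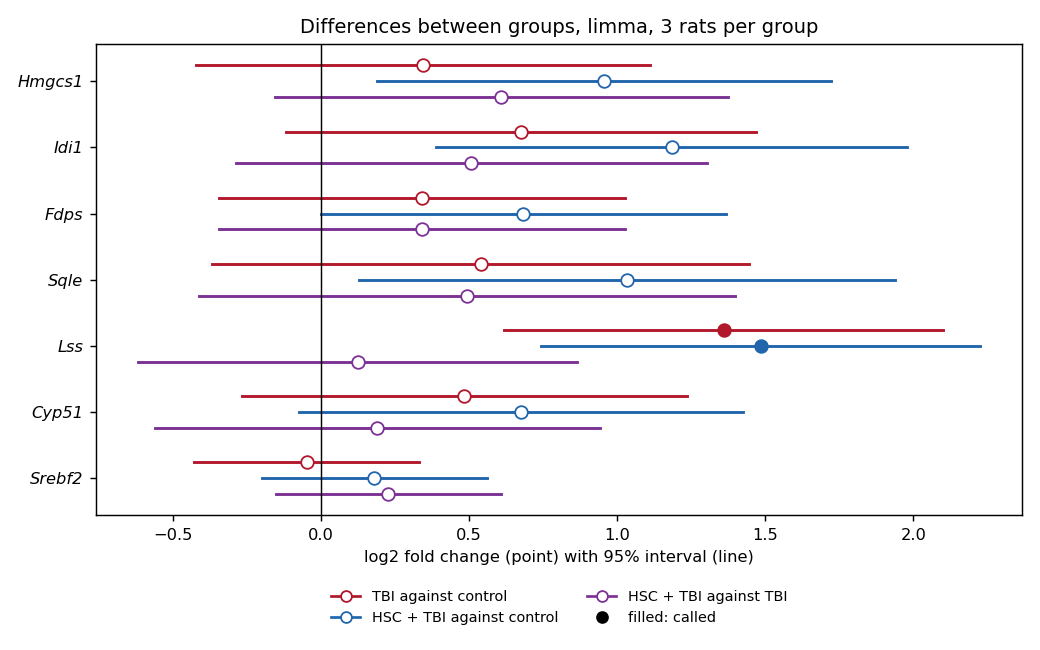
Log2 fold change (x axis; points, with lines for the 95% interval) of each member (y axis) in the 3 comparisons by limma, with 3 rats per group and filled points for called differences. Only the 2 points of Lss against control, at 1.36 and 1.49, are filled, and every interval of HSC + TBI against TBI spans 0.

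The third comparison asked whether pretreatment with HSC altered the levels of these genes in irradiated liver. No member was called between HSC + TBI and TBI by limma, against 0.271% of named genes called higher. None reached an unadjusted p of 0.05, against 5.63% of named genes with a higher signal, none was free of overlap, against 10.3%, and the t-test named in the methods gave 0 members as well. The fitted differences were 0.61 for Hmgcs1 (95% interval -0.16 to 1.38), 0.51 for Idi1 (-0.29 to 1.30), 0.34 for Fdps (-0.34 to 1.03) and 0.49 for Sqle (-0.41 to 1.40) on the log2 scale. They were 0.13 for Lss (-0.62 to 0.87), 0.19 for Cyp51 (-0.56 to 0.94) and 0.23 for Srebf2 (-0.15 to 0.61). The intervals of Hmgcs1, Idi1, Fdps and Sqle reach past a log2 difference of 1, so that a doubling is not excluded by them. The median over the 6 enzymes was 0.42 and rested on TBI rat 1, without which it was 0.01 with 3 of the 6 differences above 0. It was 0.19 without HSC + TBI rat 3 and 0.63 without TBI rat 3.

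**Figure D3:**
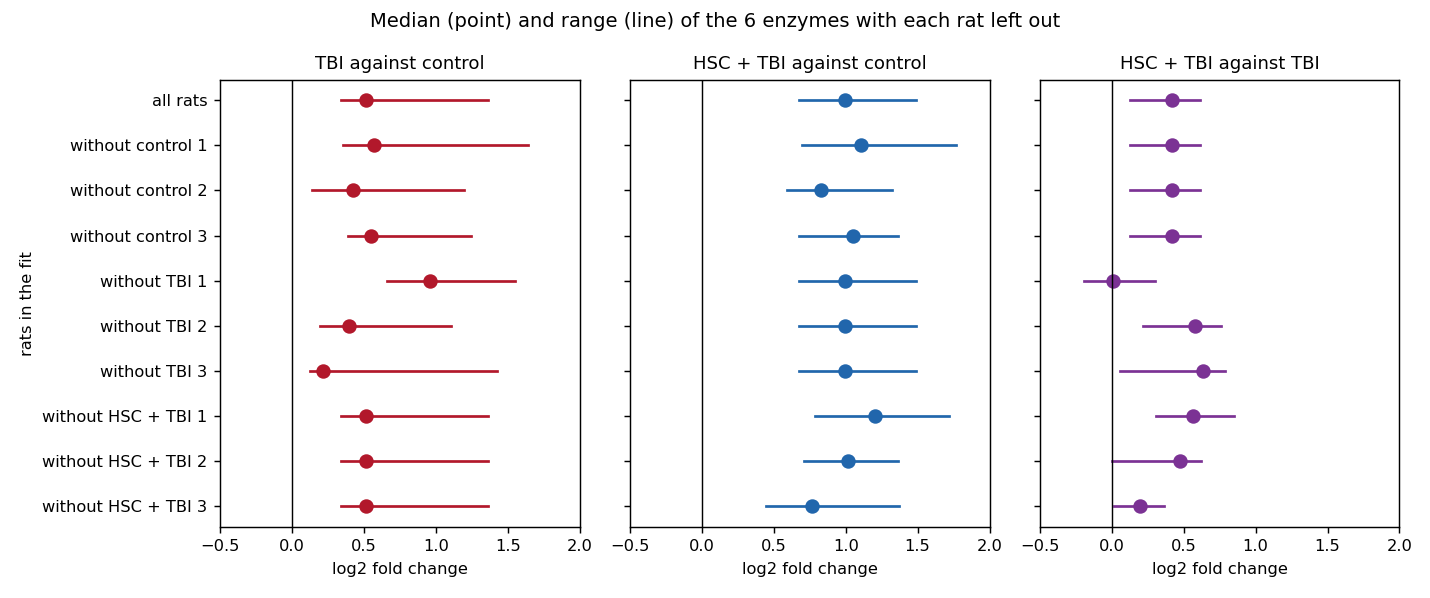
Median (point) and range (line) of the log2 fold changes (x axis) of the 6 member enzymes in each comparison, with all rats and then without 1 rat at a time (y axis). In HSC + TBI against TBI the median moves from 0.42 to 0.01 when TBI rat 1 is left out, while in HSC + TBI against control it stays between 0.77 and 1.20.

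Seen by rat, TBI rat 1 had 1 of the 6 enzymes above all controls (Lss) and 3 below all controls (Fdps, Sqle and Cyp51), with a median difference from the control mean of -0.28. In TBI rats 2 and 3 all 6 enzymes were above all controls, with medians of 0.80 and 1.10. The 3 HSC + TBI rats likewise had all 6 above all controls, with medians of 0.58, 0.95 and 1.45. The members moved together over the rats, with a Pearson r of 0.11 to 0.97 over their 21 pairs (median 0.84, 9 arrays) and of -0.10 to 0.96 (median 0.77) after the group means were removed. The arrays share one normalization and the group differences, so these values are a description, and Srebf2 had the lowest of them.

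The genes with the most similar pattern over the 9 arrays were looked for among 9588 other named genes, by Pearson r with the mean standardised signal of the 7 members. Among the 5 closest were Msmo1 (r = 0.981), Hsd17b7 (0.978), Lrrc51 (0.948) and Mvd (0.933). Msmo1, Hsd17b7 and Mvd encode enzymes of the same pathway, and Lrrc51 encodes a leucine-rich repeat protein. The closest gene to a single member was Lrrc51 for Hmgcs1 (0.958), Msmo1 for Idi1 (0.981), and Hsd17b7 for both Fdps (0.979) and Sqle (0.989). It was Rpl12, a ribosomal protein gene, for Lss (0.959), Sc5d, another enzyme of the pathway, for Cyp51 (0.946), and Arl6ip4 for Srebf2 (0.950). None of these non-members was called in any comparison.

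The other 14 enzymes of the sterol pathway, from Acat2 at the entry to Dhcr7 at the last steps, were all tested. None was called by limma in any comparison. After TBI 13 of the 14 fitted differences were above 0, with a median of 0.26 on the log2 scale. An unadjusted p under 0.05 was found for 2 of them, against 2505 of the 9601 named genes in either direction. Nsdhl, a sterol dehydrogenase, was among them (0.45, adjusted p = 0.110). After HSC + TBI all 14 were above 0, with a median of 0.40. Of them 8 did not overlap with the controls, against 17.6% of named genes that were higher without overlap. An unadjusted p under 0.05 was reached by 5, against 10.2% of named genes with a higher signal. Hsd17b7, a sterol reductase, was among these 5 (0.99, adjusted p = 0.135).

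Hsd17b7 read 7.48, 7.19 and 7.42 in the controls, 7.11, 8.15 and 8.35 in the TBI rats, and 8.11, 8.18 and 8.78 in the HSC + TBI rats on the log2 scale. In Hsd17b7, as in Fdps, Sqle and Cyp51, TBI rat 1 was below all controls and the other 5 irradiated rats were above them. Between HSC + TBI and TBI 12 of the 14 differences were above 0, with a median of 0.16 and no unadjusted p under 0.05, the smallest p-values being those of Fdft1, squalene synthase (0.44, adjusted p = 0.440), and Hsd17b7 (0.49, adjusted p = 0.494). Over the member enzymes, without Srebf2, and these enzymes together, TBI rat 1 had 3 of 20 above all controls and 11 below all controls. TBI rats 2 and 3 had 20 and 16 above all controls, and the HSC + TBI rats had 14, 16 and 19. HSC + TBI rats 1 and 2 each had 1 below all controls, and HSC + TBI rat 3 and TBI rats 2 and 3 had 0.

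**Figure D4:**
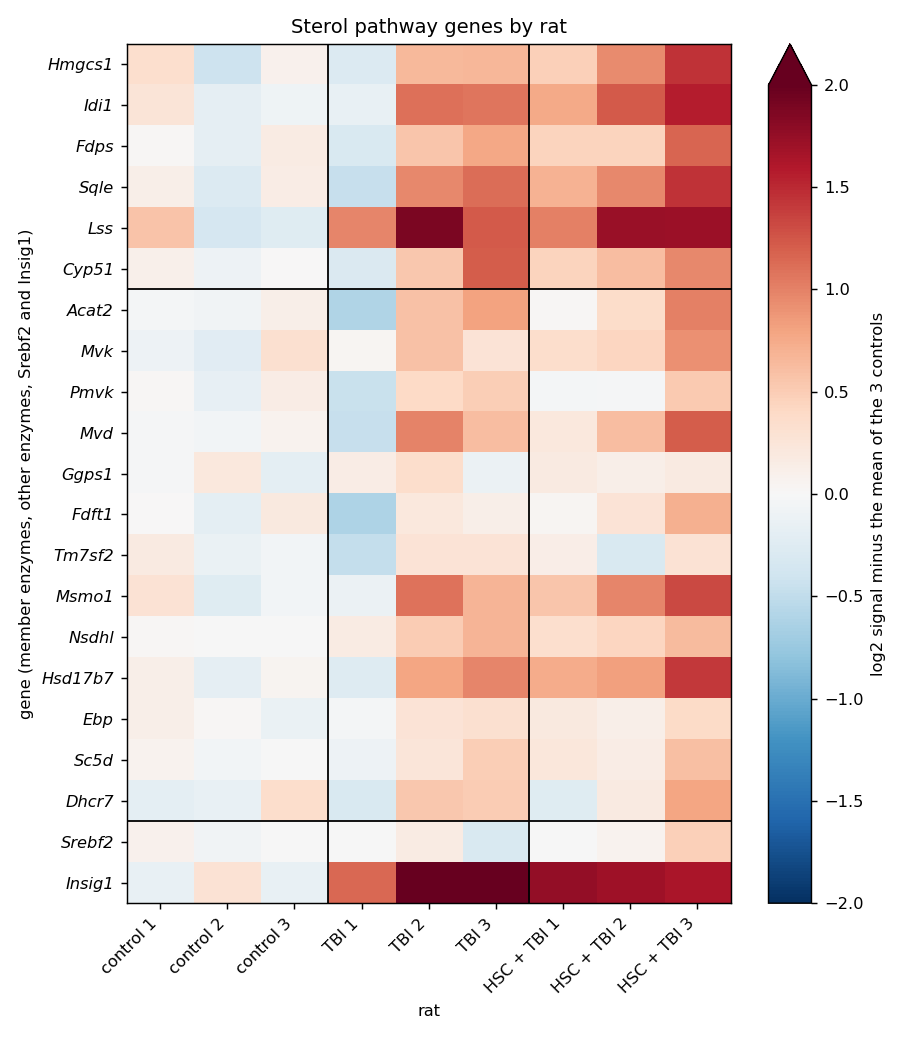
Log2 signal minus the mean of the 3 controls (colour scale, -2 to 2, red above and blue below the control mean) for enzymes of the pathway, Srebf2 and Insig1 (rows) in each of the 9 rats (columns, grouped by treatment). The column of TBI rat 1 is mostly blue, with 11 enzymes below all controls, while Insig1 is red in all 6 irradiated rats.

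Of 9 genes that control SREBP or sense oxysterols, 8 were found on the array and 7 passed the filter on dim probes, Mbtps2 being the one that did not. Insig1, which retains SREBP in the endoplasmic reticulum and is itself a known SREBP target, was called in both comparisons with control. Its log2 signal was 13.07, 13.52 and 13.08 in the controls, 14.37, 15.26 and 15.82 in the TBI rats, and 14.98, 14.92 and 14.86 in the HSC + TBI rats. All 6 irradiated rats were above all controls, TBI rat 1 among them. Insig1 rose by 1.93 on the log2 scale after TBI (SE 0.32, 95% interval 1.20 to 2.66, limma adjusted p = 0.0107), or 3.80-fold, and was called with any of the 9 rats left out, though not by the methods' t-test after adjustment (adjusted p = 0.155). It rose by 1.70 after HSC + TBI (SE 0.32, 95% interval 0.96 to 2.43, limma adjusted p = 0.0293). That second call was lost when any 1 of the 3 controls or of the 3 HSC + TBI rats was left out, with log2 fold changes of 1.62 to 1.84 and an adjusted p of up to 0.111, as well as without the filter on dim probes (adjusted p = 0.0643) and by the adjusted t-test (adjusted p = 0.0546). Each of the 4 Insig1 probes was called in both comparisons. Between HSC + TBI and TBI the difference was -0.23 (95% interval -0.96 to 0.50, adjusted p = 0.758).

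No other gene of this list was called. The share called higher was thus 1 of 7 in both comparisons with control, against 3.87% and 1.18% of named genes. Insig2, the related retention protein, gave 0.52 after TBI (adjusted p = 0.0972) and -0.50 between HSC + TBI and TBI (adjusted p = 0.200) on the log2 scale. Nr1h3, an oxysterol receptor also known as LXR alpha, gave 0.37 after TBI (adjusted p = 0.126) and -0.35 between the irradiated groups (adjusted p = 0.244). Its relative Nr1h2 gave -0.34 after HSC + TBI (adjusted p = 0.137), and Scap, the carrier of SREBP, gave 0.29 (adjusted p = 0.383). The median of the 7 was 0.21 after TBI, 0.02 after HSC + TBI and -0.14 between the irradiated groups, and 3, 2 and 2 of them had an unadjusted p under 0.05. Of the 9601 named genes, 2505, 2101 and 1443 did so in the same order, in either direction.

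Of 12 genes of cholesterol export and storage, all tested, 1 was called lower after TBI, against 3.92% of named genes, and none after HSC + TBI, against 2.71%. It was Abcg8, which forms with Abcg5 the transporter that passes sterols into bile. The log2 signal of Abcg8 was 5.63, 5.65 and 5.28 in the controls, 4.34, 4.33 and 4.20 in the TBI rats, and 5.28, 5.14 and 5.43 in the HSC + TBI rats. The TBI rats were below all other rats, and the HSC + TBI rats overlapped with the controls. Abcg8 fell by 1.23 on the log2 scale after TBI (SE 0.14, limma adjusted p = 0.00238), a call kept with any of the 9 rats left out, and the difference after HSC + TBI was -0.24 (adjusted p = 0.398). It was 0.99 higher in HSC + TBI than in TBI rats (SE 0.14, limma adjusted p = 0.0270). This second call was lost without TBI 2, HSC + TBI 1 or HSC + TBI 3, with an adjusted p of up to 0.108. The probe is dim, and with normexp background correction the difference after TBI was -0.27 (adjusted p = 0.0178 by limma, but under 1.5-fold) and that between the irradiated groups 0.18, neither of them called. A second probe of Abcg8 was not above background on any array.

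Soat2, which esterifies cholesterol in hepatocytes, gave -0.57 after TBI with an adjusted p of 0.0480 by limma but a change under 1.5-fold, and -0.29 after HSC + TBI (adjusted p = 0.310). Osbp, an oxysterol-binding protein, gave 0.57 after TBI (adjusted p = 0.0826). Abcg1, a cholesterol exporter of macrophages and other cells, gave -0.72 after HSC + TBI (adjusted p = 0.297) and -1.29 between HSC + TBI and TBI (adjusted p = 0.135). Mylip, a ubiquitin ligase induced through the oxysterol receptors, gave -0.66 between the irradiated groups (adjusted p = 0.274). The medians of the 12 genes were 0.15, -0.16 and -0.08 in the 3 comparisons, with no shared direction.

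Markers of the cell types of liver were read beside these genes. All 8 hepatocyte markers were tested and their summed signal overlapped, at 900282 to 951014 in controls, 797160 to 913153 in TBI and 858292 to 922422 in HSC + TBI rats. Taken singly, 4 of the 8 were higher and 3 lower than the controls without overlap after HSC + TBI. Over the 9601 named genes these counts were 1687 and 1623. After TBI 1 marker was higher and 1 lower without overlap, against 1368 and 1504 named genes. The sum of the 6 leukocyte markers was 6222 to 9283 in controls, 5305 to 12619 in TBI and 3511 to 3934 in HSC + TBI rats. Of these markers Coro1a was called lower in both irradiated groups, after TBI not without control 3 (adjusted p = 0.0501 by limma). Cd79b was also called lower in both, but was above background on only 3 of the 9 arrays, and Cd3e was on none. The sum of 5 Kupffer cell markers was 46127 to 66234, 45634 to 85221 and 31810 to 34851 in the same order, with none called. TBI rat 1 had the lowest sum of its group on both of these lists. The part of these markers in the values above was not tested. Spots above background made up 56.6% to 59.3% in controls, 63.6% to 69.5% in TBI and 58.7% to 60.5% in HSC + TBI rats. No slide held arrays of more than 1 group, and only the HSC + TBI group spanned 2 slides. Slide and group therefore cannot be told apart in any of the comparisons.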

How the data were processed

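Total RNA of 9 rat livers was measured on one-colour Agilent arrays. Per the labels and the file headers, the authors read spot intensity with Feature Extraction 10.7.3.1, and they normalized by quantiles and deposited log2 values for each probe, which served as an alternative. For the values given here, spots with a processed signal under 1 were raised to 1 and all were log2-transformed, and limma 3.58.1 (R 4.3.3) then brought the 9 arrays to common quantiles. Between 84 and 115 outlier spots of 43379 per array were left out, and no spot was saturated. Spots of a probe were averaged. The median absolute difference from the deposited log2 values was about 0.03.

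A probe was tested when more than 0.5 of its spots were flagged well above background in every rat of 1 or more groups, which left 25369 probes. RefSeq accessions named 16968 probes through the RefSeq gene table of assembly GRCr8, used for names and promoters only. Lengths of probes and their place in a transcript were not used here. A gene is given by its brightest probe. The labels gave the groups. Comparisons came from one limma model (lmFit, eBayes) with 3 group means, with Benjamini-Hochberg adjustment over all tested probes, and the scripts were tested on simulated data. The number of arrays limits the precision, and the smallest two-sided p of an exact permutation test with 3 against 3 rats is 0.1.

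The members and the lists of pathway and marker genes were chosen with earlier results of these data known. The named genes are all members with every probe, called list genes, the 2 genes of each list with the smallest unadjusted p among those not called in a comparison, and the genes closest to the members in pattern. Some single genes are not reported here.

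Alternatives were a 75th percentile shift, normexp with an offset of 50, the deposited values, outlier spots kept, no filter, a filter on all 9 arrays, a fit restricted to the groups compared, the t-test of the methods, no minimum fold change, any probe of a gene, a replicate block, the slide as a random block, and each rat left out.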

Additional observations from a re-analysis of the deposited data

Results flagged for a closer look

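The log2 difference of Abcg8 between HSC + TBI and TBI rats was 0.99, and it passed the test of the difference itself (limma adjusted p = 0.0270), with no overlap between the 3 rats of each group. The call was lost without TBI 2, HSC + TBI 1 or HSC + TBI 3, with normexp background correction (0.18), with only the compared groups in the fit (adjusted p = 0.0603), with the replicate number as a block (adjusted p = 0.0563) and by the methods' t-test after adjustment (adjusted p = 0.165).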

How the results depend on the processing

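The number of members called was 1 in each of the comparisons with control, first TBI and second HSC + TBI, and 0 between the irradiated groups, where it was 0 in every setting. For the first and the second comparison it was 0 and 0 without a filter on dim probes, 0 and 2 (Idi1 and Lss) with only the compared groups in the fit, 0 and 0 with the methods' t-test after Benjamini-Hochberg adjustment, and 1 and 4 (Cyp51, Idi1, Lss and Sqle) with the unadjusted t-test. With the slide as a random block it was 2 and 5, at an estimated correlation of -0.33. No slide held more than 1 group, so this block cannot separate slide from group. A negative correlation also narrows the standard errors of the group means, so the higher counts are not an adjustment for slide. No pairing by replicate number held over all groups, since deviations of same-numbered rats correlated at -0.14 to 0.19 and 2 of 9 pairs were over 0.1. With the replicate number as a block 0 and 0 members were called. Best matches were to a rat's own number in 6 of 6 cases between controls and TBI rats (r = 0.0977 to 0.191 for the same-numbered rats), which is a hint from the data and not from the design, and in 0 of 12 cases with HSC + TBI rats. The block also ended the call of Abcg8 between the irradiated groups (adjusted p = 0.0563), and the adjusted t-test ended those of Insig1 and of Abcg8 (adjusted p = 0.0667 after TBI). With each rat left out the count ranged from 0 to 3 in both comparisons with control. The percentile shift, normexp, the deposited values, kept outlier spots, probes above background on all 9 arrays, no minimum fold change and any probe of a gene gave 1 and 1. The cause of these differences was not tested.

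The sign of some small differences turned when 1 rat was left out. Over these fits Srebf2 ran from -0.15 to 0.0784 after TBI (turned without TBI 3), and its second probe from -0.10 to 0.31 after HSC + TBI (turned without control 2, at -0.01, or HSC + TBI 3). Between HSC + TBI and TBI, leaving out TBI 1 turned Cyp51 (-0.20 to 0.55), Lss (-0.0672 to 0.38), Sqle (-0.0069 to 0.79) and the second probes of Fdps (-0.0134 to 0.63), Hmgcs1 (-0.0092 to 0.69) and Idi1 (-0.0311 to 0.87), while leaving out TBI 3 turned Insig1 (-0.62 to 0.10). Of the values of single genes under all settings, 750 kept their direction and their side of the threshold, 37 lost a call, 22 gained one and these 10 turned.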

Other observations

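Among the further marker lists of liver cells, the summed signal of 3 sinusoidal endothelium markers was 12405 to 15362 in controls, 16458 to 20283 in TBI and 15264 to 16948 in HSC + TBI rats, with none called. The stellate cell marker Lrat, which esterifies retinol for storage, fell by 0.63 on the log2 scale after TBI (limma adjusted p = 0.0237), a call lost without any 1 control, TBI 1 or TBI 2 (adjusted p of up to 0.0714), and the other 3 stellate markers were not called. Neither the 2 bile duct nor the 2 erythroid markers were called, the latter with median differences of -1.22 after TBI and -1.77 after HSC + TBI. Of the hepatocyte markers only Tat, which degrades tyrosine and responds to glucocorticoids, was called, at 1.53 after TBI (limma adjusted p = 0.0287), a call lost without control 1, control 3, TBI 2 or TBI 3 (adjusted p of up to 0.0942).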
